A study of Rattus norvegicus with 2 samples.

Results

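The 10 genes described here encode parts of the signalling route used by leukemia inhibitory factor (LIF) and related cytokines of the gp130 family. They were taken as the probe sets whose single gene symbol in the platform annotation was Lif, Il6, Lifr, Cntfr, Osmr, Il6r, Il6st, Jak1, Stat3 or Socs3. Each gene had 1 such probe set, so the set holds 10 of 36685 probe sets and 10 of 18166 genes with a symbol. The members were chosen by their role, with their signals on these arrays and the difference between SMiG and C6 already known. Those differences are therefore a description of the cultures and carry no test.

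Expression was measured by microarray in C6, an established rat glioma line, on 1 array of undifferentiated cells (C6) and 1 array of small-molecule-treated cells (SMiG). Both cultures were of the same line and were grown in DMEM with 10% FBS. The labels name the treatment of SMiG in different ways. The sample's own labels give forskolin, which activates adenylyl cyclase, rapamycin, which inhibits mTORC1, and I-BET151, which inhibits BET bromodomain proteins. A protocol text shared by both samples gives CHIR99021, a GSK3 inhibitor, at 20 µM with forskolin at 100 µM for 35 days. With 1 array in each group there is no replicate error, no test across samples and no p-value, and the number of arrays limits the precision. In RNA from a whole culture, fewer cells that express a gene and less RNA of that gene in each cell cannot be told apart.

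As background, most cytokines of this family bind receptor chains on the cell surface that signal through gp130, the product of Il6st. LIF binds its receptor chain LIFR, which pairs with gp130, whereas ciliary neurotrophic factor first binds the anchored chain CNTFR and interleukin 6 first binds IL6R. The joined chains activate JAK kinases, which phosphorylate the transcription factor STAT3, and STAT3 in turn induces SOCS3, an inhibitor that binds gp130 and shuts the signal down. In neural precursor cells this route is a classic inducer of astrocytes, and Gfap is one of its known STAT3 targets.

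The promoter sequences below are shown because the treatment named in the labels includes forskolin, which raises cAMP, and because STAT3 is the factor at the end of this route. Of the 10 members, 7 had an entry in the RefSeq promoter table of build GRCr8, which holds 250 bases before and 50 bases after each annotated gene start. The 3 printed are those of the detected members at least 2-fold apart by measured signal that had an entry. Lif and Cntfr, also past 2-fold, had none, and neither had Jak1. Letters in capitals mark the cAMP response element TGACGTCA or the NF-kappaB motif GGANTTTCC, each searched on both strands. Lifr lies at chr2:57963139-57963438 on the plus strand, Stat3 at chr10:86363310-86363609 on the minus strand and Il6 at chr4:5894526-5894825 on the minus strand, each printed 5′ to 3′ in the direction of the gene.
Lifr: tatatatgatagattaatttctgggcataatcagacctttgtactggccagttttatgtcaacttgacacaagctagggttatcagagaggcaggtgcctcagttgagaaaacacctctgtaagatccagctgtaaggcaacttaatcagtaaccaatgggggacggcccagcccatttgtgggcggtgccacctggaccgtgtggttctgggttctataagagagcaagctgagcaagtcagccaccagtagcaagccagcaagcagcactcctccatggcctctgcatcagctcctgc
Stat3: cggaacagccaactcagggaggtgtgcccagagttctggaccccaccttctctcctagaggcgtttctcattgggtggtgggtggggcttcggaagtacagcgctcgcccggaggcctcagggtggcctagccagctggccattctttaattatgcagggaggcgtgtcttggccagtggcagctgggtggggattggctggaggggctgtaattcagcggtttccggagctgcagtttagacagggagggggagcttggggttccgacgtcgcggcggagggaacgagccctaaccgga
Il6: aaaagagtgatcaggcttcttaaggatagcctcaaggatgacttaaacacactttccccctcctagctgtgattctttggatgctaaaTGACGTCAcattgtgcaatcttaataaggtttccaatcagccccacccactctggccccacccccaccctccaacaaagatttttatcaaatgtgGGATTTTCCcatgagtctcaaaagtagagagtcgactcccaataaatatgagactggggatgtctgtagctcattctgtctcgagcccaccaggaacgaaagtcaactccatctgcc

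Among the members' promoters only that of Il6 held the full cAMP response element, at positions -162 to -155 from the gene start. It was 1 of 7 member promoters, and 1.91% of all 27457 promoters of the same length held the motif. Il6 was also the only one of the 7 with the NF-kappaB motif, GGATTTTCC at positions -67 to -59, a motif found in 1.26% of all promoters and chosen for the search after the sequences were seen. The shorter element TGACG, also chosen afterwards and contained in the full element, was found in Il6 and Il6r and in 6030 of all promoters. The STAT motif TTCNNNGAA was in none of the 7 member promoters and in 8.68% of all promoters. A match describes letters in this window only, and absence of a match says nothing of STAT3 at other distances. The annotated gene starts were not checked against measured starts of transcription. A window, such as that of Socs3 or Il6st, may therefore miss the promoter.

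Values are deposited signals on a log2 scale, and each difference is SMiG minus C6 in log2 units. Background was set from 1333 olfactory and vomeronasal receptor genes, which were taken as silent, and the floor of each array is the 95th percentile of their signals, 4.82 for C6 and 4.93 for SMiG. A gene above the floor on at least 1 array was called detected, which held for 11015 genes. If the lower of a gene's signals did not exceed its floor, the floor took its place in the fold, which is then written as a lower limit. Differences of the silent genes spread with an SD of 0.32, and 11 silent genes (0.825%) were 2-fold or more apart. Because these genes lie mostly at background, this SD is a yardstick and not the error of a brighter gene. The central 95% of differences of detected genes ran from -1.58 to 1.09, and their median was -0.0020.

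The receptor genes Lifr and Cntfr and the transcription factor gene Stat3 were higher in SMiG, while the ligand gene Lif was lower and Il6 ended at background. Of the 10 members, 4 were at least 2-fold higher in SMiG by measured signal (Lifr, Cntfr, Osmr and Stat3) and 2 were at least 2-fold lower (Lif and Il6). Il6r, Il6st, Jak1 and Socs3 lay within 2-fold. Osmr was not above the floor on either array, which leaves 3 of 9 detected members higher and 2 lower. Among all detected genes 3.17% were higher and 6.47% lower by this threshold, and since the members were chosen with this contrast known, nothing is read from their share. On both arrays 6 members were above the floor, whereas Lifr and Cntfr passed through SMiG alone and Il6 through C6 alone. The median difference of the 9 detected members was 0.23, beside -0.0020 for all detected genes.

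**Figure D1:**
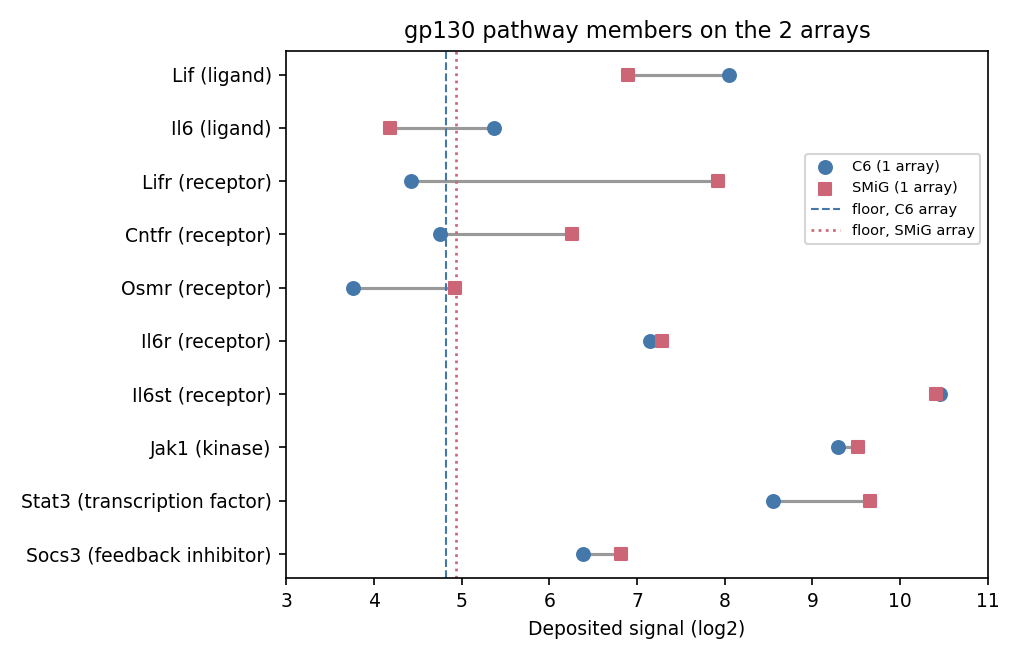
Deposited log2 signal (x axis) of each member on the C6 array (circle) and the SMiG array (square), joined by a line, with the floor of each array as a vertical line. Lifr runs from 4.43 to 7.93, Cntfr from below the C6 floor to 6.26, and Il6st sits at 10.45 and 10.41.

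The ligand Lif had a signal of 8.05 in C6 and 6.89 in SMiG. Both values were above the floor, and Lif was 2.23-fold lower in SMiG, a difference of -1.15. Lif encodes the cytokine whose receptor chain was the most different member. The nearest genes in difference were Col1a1 at -1.15 and Osgin1 at -1.16.

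Il6, encoding interleukin 6, had a signal of 5.37 in C6 and 4.18 in SMiG. The C6 value was 0.55 above its floor and the SMiG value 0.75 below its own, so the measured difference of -1.19 has a bound of at least 1.36-fold lower. A 2-fold difference of Il6 is therefore not established at this signal. The lowest difference of any silent gene was -1.38, farther from zero than that of Il6. By measured signal its nearest neighbours in difference were Slc35d1 and Zbed3, both at -1.19.

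Of the other ligands of the family, 8 of 10 listed genes had a probe set with 1 symbol and 4 were detected. Clcf1, encoding cardiotrophin-like cytokine factor 1, a ligand that acts through CNTFR, had 6.57 in C6 and 4.76 in SMiG. It was at least 3.12-fold lower, with the SMiG value below the floor, and was the only one of the 4 past 2-fold (25.0% lower, beside 6.47% of all detected genes). Osm, encoding oncostatin M, was at 5.83 in C6 and 6.24 in SMiG. Cntf, encoding ciliary neurotrophic factor, was at 5.30 and 5.57. Both were above the floor on both arrays, with differences of 0.41 and 0.27. Il11 was not above the floor on either array.

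Lifr, encoding the LIF receptor chain, had a signal of 4.43 in C6 and 7.93 in SMiG. The C6 value was 0.39 below its floor and the SMiG value far above its own, so Lifr was at least 8.63-fold higher in SMiG. By measured signal its difference was 3.50, between Mgp at 6.19 and Cp at 3.43, and this likeness rests on 2 arrays and on the difference alone. With signals under the floor set to it, the difference was 3.11 and Lifr ranked 5th from the highest of 11015 detected genes, below Cp, so its exact place is not established. The highest difference of any silent gene was 1.47, as the plot of difference against mean signal shows.

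Cntfr, encoding the chain that binds ciliary neurotrophic factor, had a signal of 4.75 in C6 and 6.26 in SMiG. The C6 value was just below its floor, and Cntfr was at least 2.71-fold higher in SMiG. Its measured difference of 1.51 was nearest to those of Kirrel1 and C14h4orf19, both also at 1.51. With the floor in place of the C6 signal the difference was 1.44. The highest difference of any silent gene, 1.47, lies between these 2 values.

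Osmr, encoding the oncostatin M receptor chain, had a signal of 3.76 in C6 and 4.93 in SMiG. The SMiG value was fractionally below its floor of 4.93 before rounding, so Osmr was not detected and no fold is given, although the measured signals differ by 1.17. Il6r, which encodes the chain that binds interleukin 6, was at 7.15 in C6 and 7.29 in SMiG. Il6st, encoding the shared chain gp130, was at 10.45 in C6 and 10.41 in SMiG. Both were far above the floor, and their differences of 0.14 and -0.046 were smaller than the SD of the silent genes' differences.

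Other receptors of the family gave small values. Of 4 listed genes with a probe set, 2 were detected, and neither passed 2-fold. Il27ra, encoding the IL-27 receptor chain, was at 5.26 in C6 and 5.60 in SMiG. Il11ra1, encoding the interleukin 11 receptor chain, was at 5.25 and 5.46.

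Jak1, encoding the kinase most closely tied to gp130, had a signal of 9.29 in C6 and 9.52 in SMiG. Its difference of 0.23 was smaller than the SD of the silent genes' differences. Stat3 had a signal of 8.55 in C6 and 9.65 in SMiG, both well above the floor, and was 2.15-fold higher in SMiG. The difference of 1.11 is close to the 2-fold threshold, with Clec2d next above at 1.11 and Ifnar1 next below at 1.10.

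The other JAK and STAT genes stayed within 2-fold. Of 7 with a probe set 6 were detected, with differences from 0.018 to 0.83. Their median was 0.41, but it was 0.12 with no floor or with a floor at the 99th percentile of silent genes, and 0.15 with signals under the floor set to it. Jak2 was at 7.25 in C6 and 7.95 in SMiG, and Stat2, which works in interferon signalling, was 1.74-fold higher. Jak3 had the largest difference of the 6, 0.83, but was below the floor in C6 and has a bound of 1.13-fold. Tyk2 was at 6.41 and 6.48.

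**Figure D2:**
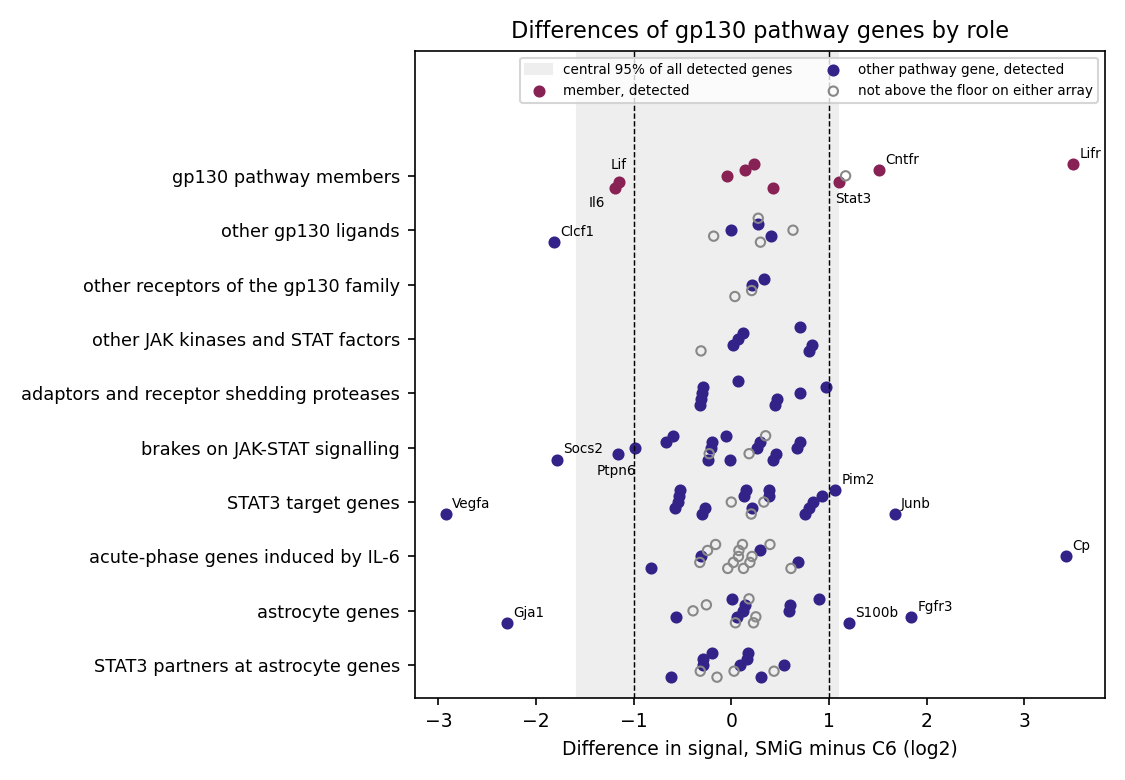
Difference in log2 signal, SMiG minus C6 (x axis), of each gene of the members and of 9 lists of related genes (rows), filled where detected and open where not. Dashed lines mark 2-fold and the grey band the central 95% of detected genes. Lifr at 3.50 and Cp at 3.43 lie farthest to the right and Vegfa at -2.92 farthest to the left.

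Adaptors of gp130 signalling and proteases that shed its receptors, 9 detected genes, held none past 2-fold. Adam17, encoding a protease that releases IL6R from the cell surface, was at 8.90 in C6 and 9.87 in SMiG, 1.95-fold higher and just inside the threshold. Gab1, an adaptor that links gp130 to MAP kinase signalling, was at 7.81 and 8.52.

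Socs3, the feedback inhibitor of gp130, had a signal of 6.39 in C6 and 6.82 in SMiG. It was 1.34-fold higher in SMiG, a difference of 0.43, and 38.5% of detected genes had a larger absolute difference. Among 16 detected genes of other brakes on JAK-STAT signalling, 2 were at least 2-fold lower (12.5%, beside 6.47% of all detected genes) and none at least 2-fold higher. Socs2, better known as a brake on growth hormone signalling, was at 7.33 in C6 and 5.55 in SMiG, 3.44-fold lower. Ptpn6, encoding the phosphatase SHP-1, was at 6.93 and 5.77, 2.24-fold lower. The other SOCS genes, named after their values were seen, ranged from -0.99 for Socs5 to 0.43 for Socs7. The median of the 16 was -0.13.

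Known targets of STAT3 gave values on both sides. Past 2-fold were 2 of 18 detected target genes on the higher side (11.1%) and 1 on the lower (5.56%), beside 3.17% and 6.47% of all detected genes, and the median was 0.18. The AP-1 gene Junb was at 6.99 in C6 and 8.66 in SMiG, and the kinase gene Pim2 was at 5.74 and 6.81, 2.09-fold higher. The angiogenic factor gene Vegfa, which is also induced by hypoxia, was at 10.18 and 7.26. Of the 18, 11 had a positive and 7 a negative difference, beside 5411 positive and 5519 negative among all 11015 detected genes. Myc at 0.93 and Klf6 at -0.58, picked by value, were the highest and the lowest of those within 2-fold. Many of these genes have other regulators, so a list of this kind does not measure STAT3 activity.

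Acute-phase genes, which interleukin 6 induces in liver, were mostly at background. Of 18 with a probe set, 13 were not above the floor on either array. Among the 5 detected, Cp, encoding the ferroxidase ceruloplasmin, was at 6.85 in C6 and 10.27 in SMiG and was the only one past 2-fold (20.0% higher, beside 3.17% of all detected genes). In the promoters of this list 5 of 15 held the STAT motif TTCNNNGAA (33.3%, beside 8.68% of all promoters). Of these, Serpina3n and Hamp were detected, at differences of -0.31 and 0.30. The other lists had lower shares: 14.3% of 14 STAT3 targets, 12.5% of 16 brakes and 6.25% of 16 astrocyte genes. The remaining lists of related genes had no promoter with the motif.

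Astrocyte genes, the classic endpoint of this route, had members past 2-fold on both sides. Of 17 with a probe set, 11 were detected and 6 were not. Among the 11, 2 were higher past 2-fold (18.2%) and 1 was lower past it (9.09%), beside 3.17% and 6.47% of all detected genes. Positive differences were seen in 9 of the 11 and negative ones in 2, beside 5411 positive and 5519 negative among all 11015 detected genes. The 9 ran from 0.0056 for Vim to 1.84 for Fgfr3, and the median of the 11 was 0.14. Gfap, the intermediate filament gene that STAT3 induces in astrocytes, was at 6.04 in C6 and 5.48 in SMiG, a difference of -0.56. The calcium-binding protein gene S100b was at 9.67 and 10.87, and the receptor gene Fgfr3 at 6.16 and 8.00. The gap junction gene Gja1 was at 8.19 and 5.90. The water channel gene Aqp4 was not above the floor on either array, and neither were Slc1a2, Slc1a3, Sox9, Gjb6 and Acsbg1. The list of STAT3 partners at astrocyte genes, which also holds Ncor1 and genes of the Dnmt, Bmp and Bmpr families, had 9 detected. None of them was past 2-fold. Dnmt1, encoding a DNA methyltransferase that restrains Gfap, was at a difference of 0.54 and Smad1 at -0.62.

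Pooled over these 9 lists, and without the members, 80 of 116 genes with a probe set were detected. Past 2-fold, 5 of them were higher (6.25%) and 5 lower (6.25%), beside 3.17% and 6.47% of all detected genes. The pooled median was 0.14. The lists were written with earlier results on these arrays known, so the counts are a description.

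**Figure D3:**
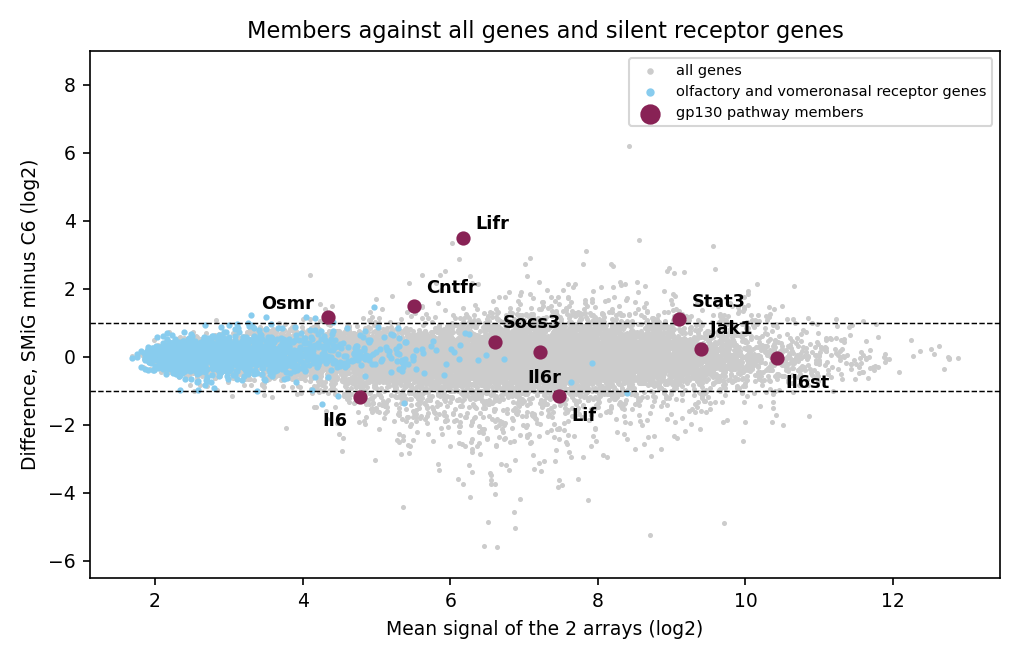
Difference in log2 signal, SMiG minus C6 (y axis), against the mean signal of both arrays (x axis) for all genes in grey, the silent receptor genes in blue and the 10 members in dark red, with dashed lines at 2-fold. Lifr at 3.50 lies above all silent genes, whose highest difference is 1.47, and Osmr and Il6 have the lowest mean signals of the members.

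Several members sit beside a related gene in the genome. In GRCr8, used here for the order of protein-coding genes only, Osmr and Lifr are next to each other. Their measured differences were 1.17 and 3.50, but Osmr was not detected. On either side of this pair lie Rictor, with a difference of -0.08, and Egflam, which was 5.54-fold lower in SMiG at 8.09 in C6 and 5.62 in SMiG. Gdnf, the next gene after Egflam, was 2.06-fold lower. Neighbours on one side of Lifr were thus lower while Lifr was higher. Stat3 lies beside Stat5a, with Stat5b next, at differences of 0.018 and 0.12, so the 3 linked STAT genes did not share the difference of Stat3. Lif adjoins Osm, with differences of -1.15 and 0.41, and Il6st adjoins Il31ra, which was not detected. These neighbours were looked at after the members' values were known.

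Markers of the labelled cells and of other cell types were read on the same arrays. The intermediate filament gene Vim was at 12.74 on both arrays and S100b and Gfap were above the floor on both. Of the 17 astrocyte genes with a probe set, 6 were not detected, among them Aqp4. Microglia, a usual source of gp130 cytokines in brain, had 3 of 8 markers detected, at differences from -0.81 to 0.87, and Aif1, Itgam, Csf1r, Cx3cr1 and Ptprc were not above the floor. Of 6 endothelial and mural markers with a probe set 5 were detected, 2 of them at least 2-fold lower (40.0%). The neuron list had 5 of 8 detected with 1 lower (20.0%), and the oligodendrocyte list 9 of 9 with 2 higher (22.2%) and 1 lower (11.1%). Of these 9 oligodendrocyte genes 6 were above the floor in C6, while Mbp, Mog and Mag passed through SMiG alone. Over all detected genes the shares were 3.17% higher and 6.47% lower. The part of these markers in the members' differences was not tested.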

How the data were processed

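Deposited values, 1 for each probe set on each array, were taken as log2 signals on a scale the authors made. The log base is not given in the sources used here and was read from the values, which reach 13.09, above the natural log of a 16-bit maximum (11.09). No source used here gives the background correction, probe summarization or normalization, and each could change a fold. Column medians were 4.84 (C6) and 4.86 (SMiG), and the sorted columns differed by a median of 0.036, so no further normalization was applied.

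Genes were named from the platform annotation where a probe set had 1 symbol (18511 probe sets; 575 had several and 17599 none), and probe sets of a gene were averaged. Silent genes were receptor genes that RefSeq lists as protein-coding. The threshold for a gene to count as higher or lower was a log2 difference of 1 (2-fold) between measured values. The counting was tested on simulated data.

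The members and lists were chosen with earlier results of these data known. Named genes are all members, list genes past 2-fold (otherwise the 2 with the largest differences in a list), 12 genes named whatever their value, and the nearest genes in difference. Receptor protein sequences were not used here. Some of the 12 are not reported here. Python 3.11.15, numpy 2.4.6, pandas 2.3.3, statsmodels 0.14.6 and matplotlib 3.10.9 were used.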

Additional observations from a re-analysis of the deposited data

How the results depend on the processing

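Each member's difference was recomputed under 9 alternatives, and 87 of the 90 values stayed within the silent genes' SD (0.32) of the reported one. The other 3 came from setting signals under the floor equal to it, which gave 3.11 for Lifr, -0.44 for Il6 and 0.11 for Osmr. Alternatives that changed only which genes count as detected could not move a difference. Nor could those that combined probe sets in another way, since each member had 1 probe set. The 87 values include these fixed ones and do not measure stability. The count of members lower became 1 with floored signals, 1 when the floor was the 99th percentile of silent genes, where Il6 and Osmr were not detected, and 0 at a 3-fold threshold. At 3-fold, 1 member (Lifr) was higher. The pooled pathway genes gave 20 higher and 10 lower at 1.5-fold, and 3 higher and 4 lower at 3-fold. Shares of all detected genes at 1.5-fold and 3-fold were not computed, so nothing is read from these counts. The median differences of members and of pooled genes kept their sign under the 9 alternatives. Of the values of single genes and lists, 18 moved (by more than that SD, or for a count by over 1.5 times) and 575 did not. Here too the differences of single genes were fixed under the alternatives for detection and for probe sets. Centring, a lowess trend (span 0.3) and quantile normalization moved the median difference of all detected genes by less than 0.1. Quantile normalization gave 384 genes higher and 667 lower, against 349 and 713. Precision is limited by 1 array per group and, for Il6, Osmr and the C6 values of Lifr and Cntfr, by signal at background. No paired analysis was possible because each group has 1 array.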
